A study of Homo sapiens with 18 samples.

Results

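The genes described here are 9 transcriptional targets of p53: CDKN1A, MDM2, GDF15, TP53I3, SESN1, FAS, ZMAT3, RRM2B and PLK3. They were chosen by symbol from a table of RNA sequencing read counts for 20263 genes; the list of symbols was drawn up with earlier results of these data known, though no level entered the rule. All 9 were in the table, and all 9 were among the 14234 genes that passed a filter on low counts.

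Human cancer cells were exposed for 24 h to 20 nM H3B-8800, a small molecule that binds the splicing factor SF3B1 and alters pre-mRNA splicing, or to its solvent DMSO. The labels name 3 established lines, all given as wild type in genotype and grown in high-glucose medium with fetal bovine serum: MHCC-97H from liver cancer, MDA-MB-231 from breast cancer and HCT-116 from colorectal cancer. Each line label has 3 libraries with H3B-8800 and 3 with DMSO, which gives 6 groups and 18 libraries. Nothing in the labels tells separate cultures from repeat libraries of 1 culture, so p-values measure only the spread between these libraries, which may be technical. The level of p53 targets without the drug is compared between labels as well as the response to it.

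The libraries held 28232315 to 41488278 counts. The 6 libraries labelled MDA-MB-231 and the 6 labelled HCT-116 shared 1 expression profile: Pearson's r of log2 CPM, counts scaled to a common library size, was 0.978 to 0.985 in 36 pairs across these labels, against 0.611 to 0.638 in pairs with MHCC-97H, over 14234 genes. Under both of these labels, 5 of 7 intestinal markers exceeded 1 CPM and CDX1 was at 0. The intestinal list summed to 1528 to 1563 CPM under MDA-MB-231, 1540 to 1642 CPM under HCT-116 and 17.1 to 18.4 CPM under MHCC-97H. EPCAM ran against the rest of that list: it made up the whole MHCC-97H sum, with a mean of 17.8 CPM there, and averaged 0.017 CPM under MDA-MB-231 and 0.078 CPM under HCT-116. The liver list summed to 46.2 to 62.8 CPM under MDA-MB-231 and 55.5 to 73.5 CPM under HCT-116, labels that are not of liver, with mean ALB of 16.4 and 20.4 CPM. Under MHCC-97H, 6 of 7 liver markers were at 0 in all 6 libraries, ALB and AFP among them, and the sum of the list, all of it HNF4A, was 4.69 to 5.93 CPM. The breast list summed to 85.7 to 96.4 CPM under MDA-MB-231, 92.3 to 108 CPM under HCT-116 and 1199 to 1392 CPM under MHCC-97H. That excess was in VIM, which averaged 18.7 CPM under MDA-MB-231, 21.2 under HCT-116 and 1298 under MHCC-97H, while GATA3 (47.4, 49.0 and 0 CPM in the same order) and TFF1 (27.0, 30.1 and 8.63 CPM) ran the other way. Under MHCC-97H COL1A1, a fibroblast marker, averaged 39.5 CPM and made up most of the fibroblast list, which summed to 40.7 to 45.1 CPM. PDGFRB, of the same list, averaged 2.26 CPM there, whereas COL1A2 was at 0 in all 6 libraries. DCN averaged 0.68 CPM under MHCC-97H, 0.87 under MDA-MB-231 and 1.04 under HCT-116. Immune and endothelial lists summed to at most 2.87 and 6.25 CPM in any library. Since MDA-MB-231 and HCT-116 are different lines, at least 1 of these labels goes against the profiles, and groups are named below only by the line on the label. Of the 12 libraries with the shared profile, 3 stood apart from the other 9 (MDA-MB-231 H3B-8800 replicate 3, HCT-116 DMSO replicate 2 and HCT-116 H3B-8800 replicate 2), with Spearman's rho of 0.338 to 0.479 among their deviations from the mean of the 12 and -0.521 to 0.192 with the others.

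p53 is a transcription factor that accumulates when cells sense DNA damage and related stress. MDM2, a ubiquitin ligase, marks p53 for degradation and is itself a p53 target, which closes a feedback loop. Other targets stop the cell cycle (CDKN1A), supply nucleotides for DNA repair (RRM2B), control redox state and growth signalling (TP53I3, SESN1), bind RNA (ZMAT3) or promote cell death (FAS), and several of them, GDF15 among them, also respond to stress pathways other than p53.

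p53 binds DNA as a pair of 10-base half-sites. From the members' promoters, 3 stretches are shown because they hold the only matches to this half-site or to TATAA among the members' windows. Other forms of the TATA box were not searched for. RefSeq promoters (GRCh38.p14) were matched for 8 of the 9 genes, in 16 windows of 250 bases before an annotated start. Capitals mark the motif, and each stretch is written 5′ to 3′ on the strand of the gene:
FAS, half-site: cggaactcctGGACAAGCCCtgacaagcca
SESN1, half-site: attgtcgtctGGACAAGTCTccacaagtca
GDF15, TATAA: gtccggggacTATAAaggccggtccggcag
The FAS stretch lies at chr10:88991299-88991328 on the plus strand, and its half-site begins 122 bases before an annotated start inside the gene. The SESN1 stretch lies at chr6:109009018-109009047 on the minus strand, and its half-site begins 49 bases before an annotated start inside the gene. The other windows of FAS and SESN1 lay nearer the first base of the gene and held no half-site. The bases right after the marked half-site match the half-site consensus at 8 of 10 positions in FAS and 7 of 10 in SESN1. The GDF15 stretch lies at chr19:18386119-18386148 on the plus strand, with TATAA beginning 29 bases before an annotated start inside the gene. Among 35116 promoter windows of the same length, 5.57% held the p53 half-site consensus, which reads the same on both strands, and 0.0256% held 2 of them 0 to 13 bases apart, as no member window did. TATAA, searched on the gene's strand, was in 13.6% of the windows. The GC box GGGCGG, searched on both strands, was in 42.6% of the windows and in windows of 7 of the 8 genes. The search took only half-sites that matched at all 10 bases, within the 250 bases before a start. Sites with a mismatch or farther away would be missed. A window without a match therefore does not show that a gene lacks a p53 site. These matches describe letters in the windows and no binding was measured.

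With H3B-8800, the p53 targets did not move as 1 group. Under MHCC-97H, 3 of the 9 changed past the threshold of edgeR's quasi-likelihood test, an adjusted p under 0.05 over 14234 genes: ZMAT3, an RNA-binding protein, rose, whereas GDF15, a secreted stress cytokine, and TP53I3, a quinone oxidoreductase, fell. CDKN1A and MDM2, the best known p53 targets, did not pass. The background under this label was high, since 27.6% of all tested genes were called (12.9% higher and 14.7% lower), and 3 of 9 is near that share. The median log2 fold change was 0.36 over the 9 genes and -0.06 over all tested genes. The libraries are bulk RNA, in which a lower level per cell and fewer expressing cells cannot be told apart.

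Under MDA-MB-231 and HCT-116, none of the 9 genes was called, on a background of 0.0351% of tested genes under each label. At an unadjusted p under 0.05, edgeR found MDM2 under MDA-MB-231, and MDM2 and FAS under HCT-116, and limma voom and DESeq2 also called none of the 9. The median over the 9 genes was -0.08 under MDA-MB-231 and 0.14 under HCT-116.

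**Figure D1:**
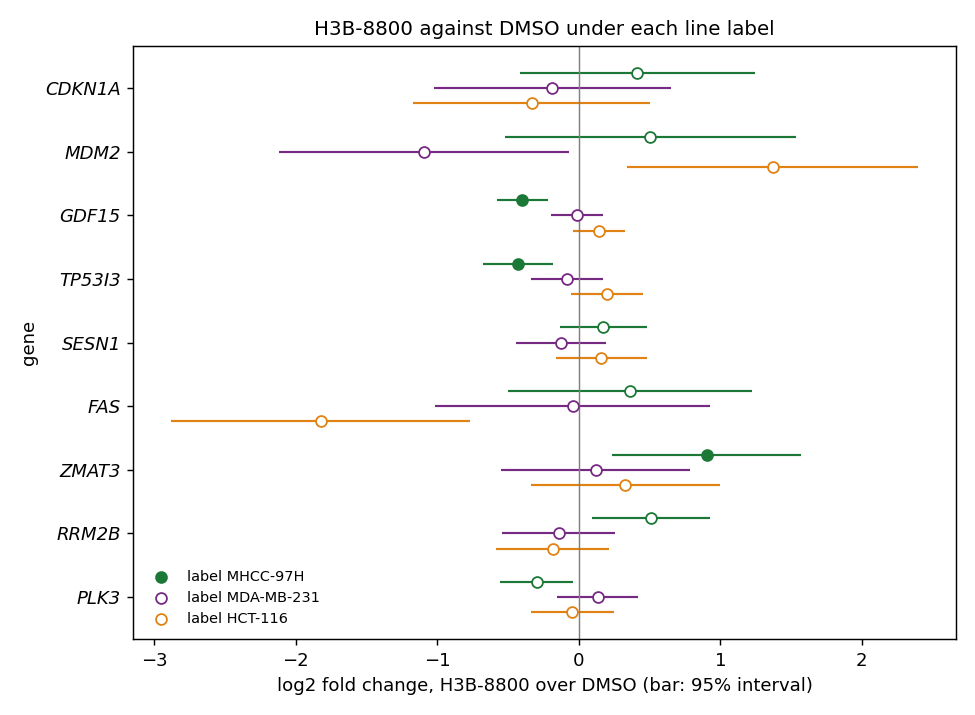
Log2 fold change of H3B-8800 over DMSO with its 95% interval (x axis) for the 9 p53 targets (y axis) under each line label; filled points were called and hollow ones were not. GDF15 and TP53I3 lie below 0 and ZMAT3 above 0 under MHCC-97H; the widest intervals are those of MDM2 and FAS.

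Without the drug, most of the 9 genes were lower under the other labels than under MHCC-97H. Of the 9, 6 were lower and 2 higher in DMSO libraries labelled MDA-MB-231, and 6 were lower and 1 higher in those labelled HCT-116, both against MHCC-97H. The same 6 genes, CDKN1A, GDF15, TP53I3, SESN1, FAS and PLK3, made up the lower calls in both comparisons, which share the MHCC-97H libraries. The background was again high: 82.7% of tested genes were called for MDA-MB-231 over MHCC-97H (43.2% higher and 39.5% lower) and 82.5% for HCT-116 over MHCC-97H (43.0% higher and 39.5% lower). Scaling by library totals in place of TMM moved the median of all genes by 0.28 for MDA-MB-231 and 0.26 for HCT-116 on the log2 scale and left these 6 genes lower. Between HCT-116 and MDA-MB-231 in DMSO, none of the 9 was called, against 0.0351% of all genes, with 1 of the 9 (MDM2) at an unadjusted p under 0.05.

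**Figure D2:**
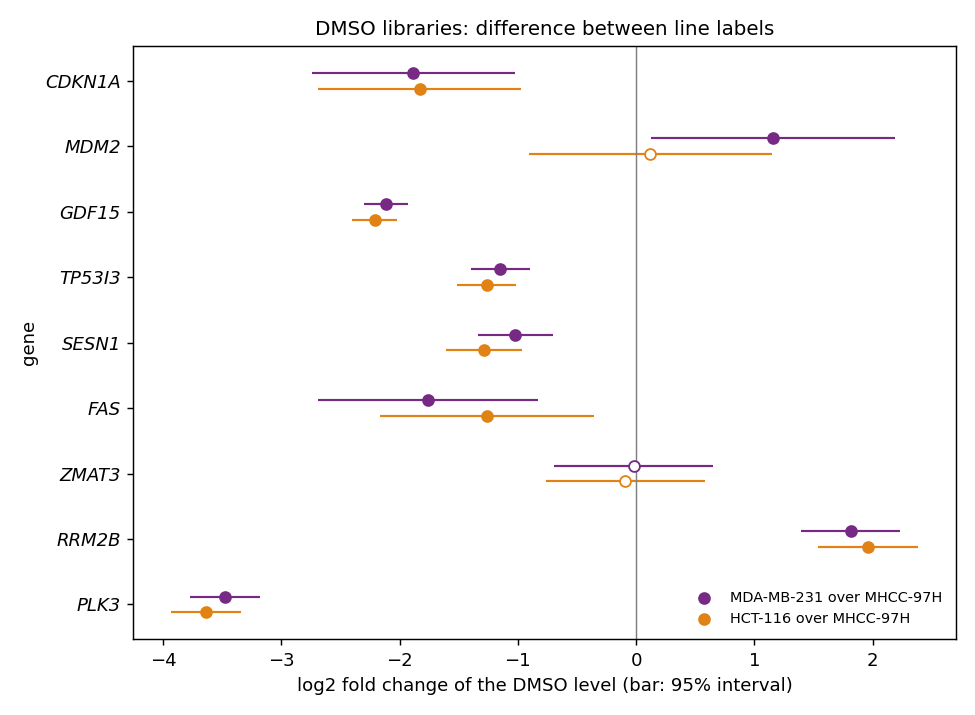
Log2 fold change of the DMSO level with its 95% interval (x axis) for the 9 p53 targets (y axis), for MDA-MB-231 over MHCC-97H and HCT-116 over MHCC-97H. Filled points were called and hollow ones were not. PLK3 lies farthest below 0 and RRM2B farthest above 0.

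Compared per kilobase of exon, CDKN1A and GDF15 held the highest levels in every group. In DMSO libraries labelled MDA-MB-231, CDKN1A had 23.2 ± 1.10 CPM per kb, GDF15 16.5 ± 1.34 and RRM2B 5.47 ± 0.62 (SD, n = 3 each). Below them came MDM2 (2.29 ± 1.39) and TP53I3 (2.25 ± 0.11), which did not differ beyond their spread, then PLK3, SESN1 and ZMAT3 at 0.707 to 0.558 CPM per kb, and FAS lowest at 0.118. The HCT-116 order also ran CDKN1A, GDF15, RRM2B, and FAS was lowest at 0.168 CPM per kb. In MHCC-97H DMSO libraries, CDKN1A (85.5 ± 39.2) and GDF15 (71.2 ± 2.47) overlapped in CPM per kb, and were followed by PLK3 at 7.87, TP53I3 at 4.98 and RRM2B at 1.56, with FAS lowest at 0.405. PLK3 and RRM2B changed places between MHCC-97H and the other labels.

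**Figure D3:**
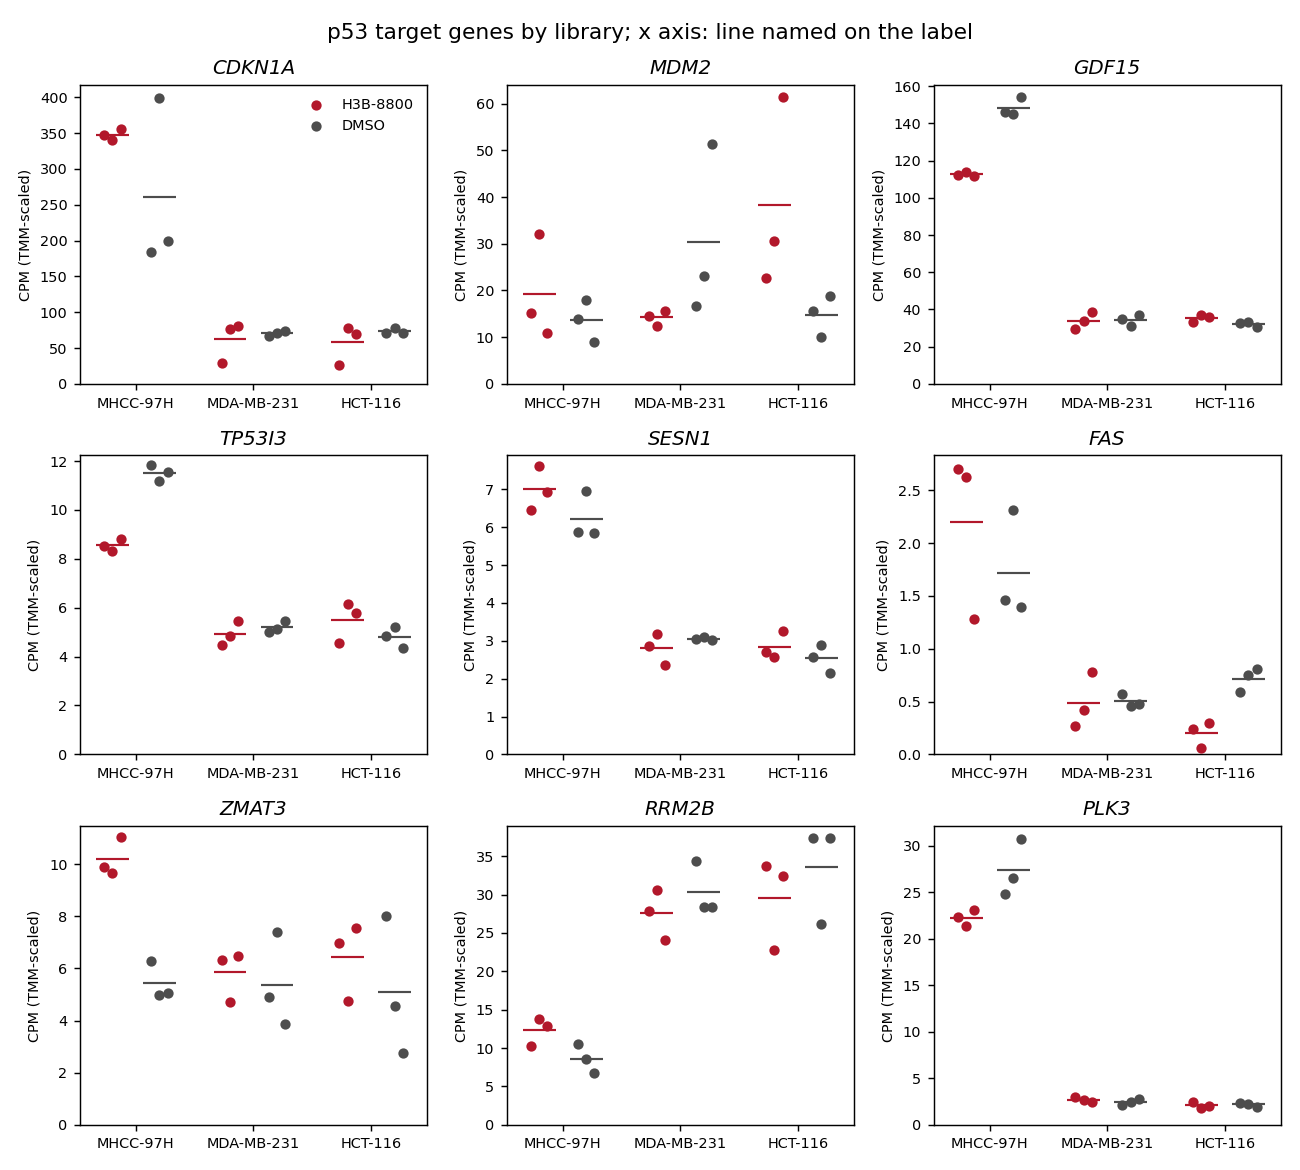
TMM-scaled CPM in each of the 18 libraries (y axis, linear, from 0) for the 9 p53 targets, by the line on the label (x axis), with H3B-8800 left of DMSO; points are libraries and horizontal lines are group means. CDKN1A, GDF15, TP53I3, SESN1, FAS and PLK3 stand higher under MHCC-97H, and RRM2B stands lower.

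CDKN1A (chr6:36676460-36687339, plus strand, GRCh38) encodes p21, the CDK inhibitor that carries p53's cell-cycle arrest. The MHCC-97H libraries had 347, 340 and 355 CPM with H3B-8800, against 184, 399 and 199 CPM with DMSO. The DMSO libraries lay on both sides of the treated ones, so the groups overlapped, and the log2 fold change was 0.41 with a 95% interval of -0.42 to 1.24 (edgeR adjusted p = 0.473). The MDA-MB-231 libraries had 28.6, 76.8 and 80.5 CPM with H3B-8800, against 67.3, 70.6 and 74.0 CPM with DMSO. The HCT-116 libraries had 26.8, 78.1 and 69.8 CPM with H3B-8800, against 71.2, 78.3 and 70.5 CPM with DMSO. Replicate 1 with H3B-8800 was the lowest library under both labels, and neither is among the 3 libraries that stood apart. In DMSO libraries, CDKN1A averaged 70.6 ± 3.35 CPM under MDA-MB-231, 73.3 ± 4.32 under HCT-116 and 261 ± 120 under MHCC-97H (SD, n = 3 each). The log2 difference was -1.88 for MDA-MB-231 over MHCC-97H (edgeR adjusted p = 0.000491) and -1.83 for HCT-116 over MHCC-97H (edgeR adjusted p = 0.000618). Between HCT-116 and MDA-MB-231 its 95% interval was -0.78 to 0.89.

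MDM2 (chr12:68808176-68850686, plus strand) encodes the ubiquitin ligase that restrains p53. With the MHCC-97H label it had 15.2, 32.0 and 10.8 CPM with H3B-8800, against 13.8, 18.0 and 9.05 CPM with DMSO, and the groups overlapped (log2 fold change 0.51, edgeR adjusted p = 0.479). In the libraries labelled MDA-MB-231 it had 14.6, 12.4 and 15.7 CPM with H3B-8800, against 16.7, 23.1 and 51.4 CPM with DMSO, so all treated libraries lay below, as in 1 direction or the other for 18.5% of tested genes. HCT-116 libraries had 22.8, 30.6 and 61.4 CPM with H3B-8800, against 15.7, 9.97 and 18.8 CPM with DMSO, so all treated libraries lay above, in a comparison where 7.00% of tested genes did not overlap. The estimates had opposite signs under these labels, whose libraries share 1 profile: -1.10 (95% interval -2.12 to -0.07, edgeR adjusted p = 0.666) under MDA-MB-231 and 1.37 (0.34 to 2.40, edgeR adjusted p = 0.942) under HCT-116. Their difference, HCT-116 minus MDA-MB-231, was 2.46 (1.01 to 3.92) and did not pass (edgeR adjusted p = 0.943), and the mean effect over both labels was 0.14. None of the 9 genes was called for this mean, against 0.0422% of tested genes.

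In DMSO libraries, MDM2 averaged 30.4 ± 18.5 CPM under MDA-MB-231, 14.8 ± 4.46 under HCT-116 and 13.6 ± 4.49 under MHCC-97H (SD, n = 3 each). It was called higher under MDA-MB-231 than under MHCC-97H (log2 1.16, edgeR adjusted p = 0.0371), although libraries of these groups overlapped. This rested on DMSO replicate 3 of MDA-MB-231: without that library the log2 difference was 0.55 (edgeR adjusted p = 0.290). In limma voom the adjusted p was 0.0659. The call was also lost without DMSO replicate 1 or 3 of MHCC-97H (edgeR adjusted p = 0.0750 and 0.129). It was lost too without HCT-116 H3B-8800 replicate 2 (0.0504) and without the 3 libraries that stood apart (0.0667). With the replicate number as a block, the fit compared levels of replicate 1 under each label and not group means. Its value (log2 0.82, edgeR adjusted p = 0.137) therefore does not test this call.

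CDKN1A and MDM2 were among the more variable genes between replicates. The SD of log2 CPM within groups was 0.63 for MDM2, larger than for 94.4% of tested genes, and 0.55 for CDKN1A, larger than for 91.7%, against a median of 0.17. Over the 12 libraries with the shared profile, the highest MDM2 level was 6.15 times the lowest, and the highest CDKN1A level 3.00 times the lowest. The genes most like each of them over the 18 libraries, by Pearson's r of log2 CPM after subtraction of each label's mean and among 9232 genes, were KCNK5 (r = 0.717), NECTIN1 (0.699) and DNAJB4 (0.691) for CDKN1A. For MDM2 they were EIF4E (0.762), PDCD10 (0.760) and ABCE1 (0.741). These r values describe libraries that also differ in depth and base composition.

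GDF15 (chr19:18374731-18389176, plus strand) encodes a secreted cytokine of the TGF-beta superfamily. Under MHCC-97H it had 112, 114 and 112 CPM with H3B-8800, against 146, 145 and 154 CPM with DMSO. All treated libraries lay below all DMSO libraries, as they did in either direction for 47.6% of tested genes under this label, and GDF15 fell by 0.40 ± 0.08 (SE) on the log2 scale (edgeR adjusted p = 0.00481). Under MDA-MB-231 it had 29.4, 34.0 and 38.7 CPM with H3B-8800, against 34.9, 31.3 and 36.9 CPM with DMSO, and the log2 fold change was -0.01 (95% interval -0.20 to 0.17). In the libraries labelled HCT-116 it had 33.3, 37.1 and 36.0 CPM with H3B-8800, against 33.0, 33.0 and 30.3 CPM with DMSO, with all treated libraries above and a log2 fold change of 0.14 that was not called. The effect differed from that under MHCC-97H by 0.54 for HCT-116 (edgeR adjusted p = 0.0174) and by 0.39 for MDA-MB-231 (edgeR adjusted p = 0.0355); 13.2% and 20.2% of tested genes were called in these differences, which share the MHCC-97H libraries. The MDA-MB-231 difference was lost in 9 of the 18 fits that each left out 1 library, and without the 3 libraries that stood apart it was 0.28 (edgeR adjusted p = 0.0780); with library totals as the scaling it was 0.22 (edgeR adjusted p = 0.214). The HCT-116 difference was lost without HCT-116 DMSO replicate 3 (edgeR adjusted p = 0.0532).

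GDF15 averaged 113 ± 0.966 CPM under MHCC-97H with H3B-8800, against 149 ± 5.16 CPM with DMSO (SD, n = 3 each). In DMSO libraries it averaged 34.4 ± 2.80 CPM under MDA-MB-231 and 32.1 ± 1.55 under HCT-116, log2 -2.11 (edgeR adjusted p = 2.6e-12) and -2.21 (edgeR adjusted p = 1.55e-12) relative to MHCC-97H. The genes most like GDF15, by the measure used for CDKN1A, were TYSND1 (r = 0.912), RAC3 (0.908) and RHOT2 (0.903).

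TP53I3 (chr2:24077433-24085861, minus strand), also called PIG3, encodes a quinone oxidoreductase linked to p53-dependent cell death. The MHCC-97H libraries had 8.52, 8.32 and 8.81 CPM with H3B-8800, against 11.9, 11.2 and 11.6 CPM with DMSO. The groups did not overlap, and TP53I3 fell by 0.43 ± 0.12 (SE) on the log2 scale (edgeR adjusted p = 0.0145). The MDA-MB-231 libraries had 4.46, 4.83 and 5.46 CPM with H3B-8800, against 4.99, 5.14 and 5.47 CPM with DMSO, and the groups overlapped. Under HCT-116 it had 4.57, 6.15 and 5.79 CPM with H3B-8800, against 4.84, 5.19 and 4.35 CPM with DMSO, again with overlap. Its effect under HCT-116 minus that under MHCC-97H was 0.63 (edgeR adjusted p = 0.0282), a call lost in 7 of the 18 fits that each left out 1 library and with library totals (0.48, edgeR adjusted p = 0.0612). The decrease under MHCC-97H was lost without H3B-8800 replicate 2 of that label (-0.41, edgeR adjusted p = 0.0513) and with library totals as the scaling (-0.30, edgeR adjusted p = 0.0731).

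In DMSO libraries TP53I3 averaged 5.20 ± 0.25 CPM under MDA-MB-231, 4.80 ± 0.42 under HCT-116 and 11.5 ± 0.34 under MHCC-97H (SD, n = 3 each). The log2 differences from MHCC-97H were -1.15 for MDA-MB-231 (edgeR adjusted p = 1.86e-07) and -1.26 for HCT-116 (edgeR adjusted p = 6.05e-08).

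SESN1 (chr6:108986437-109094819, minus strand) encodes sestrin 1, which restrains mTORC1 signalling and oxidative stress. With the MHCC-97H label it had 6.45, 7.62 and 6.93 CPM with H3B-8800, against 5.86, 6.94 and 5.84 CPM with DMSO, which overlapped (log2 fold change 0.17, edgeR adjusted p = 0.413). Under MDA-MB-231 it ranged from 2.35 to 3.18 CPM with H3B-8800 and from 3.01 to 3.11 CPM with DMSO. Under HCT-116 it ranged from 2.57 to 3.25 CPM with H3B-8800 and from 2.16 to 2.89 CPM with DMSO. In DMSO libraries its log2 difference from MHCC-97H was -1.02 for MDA-MB-231 (edgeR adjusted p = 9.9e-06) and -1.28 for HCT-116 (edgeR adjusted p = 8.27e-07), and the groups did not overlap in either comparison, as was so for 84.9% of tested genes for MDA-MB-231 and 83.6% for HCT-116.

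FAS (chr10:88990582-89015785, plus strand) encodes a death receptor of the TNF receptor superfamily. It was the lowest of the 9 genes, and the values under HCT-116 rested on few reads. The HCT-116 libraries had 0.236, 0.0597 and 0.301 CPM with H3B-8800 (8, 2 and 10 counts), against 0.590, 0.749 and 0.804 CPM with DMSO. The groups did not overlap, and the log2 fold change of -1.82 (95% interval -2.88 to -0.77) was not called (edgeR adjusted p = 0.664). In the libraries labelled MDA-MB-231 it had 0.272, 0.416 and 0.784 CPM with H3B-8800, against 0.574, 0.457 and 0.476 CPM with DMSO, a log2 fold change of -0.04. Under MHCC-97H it had 2.70, 2.63 and 1.28 CPM with H3B-8800, against 1.46, 2.31 and 1.39 CPM with DMSO, with overlap (log2 fold change 0.36, edgeR adjusted p = 0.555).

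The effect on FAS under HCT-116 minus that under MHCC-97H was -2.19 and was called (edgeR adjusted p = 0.0393). It was not called in 9 of the 18 fits that each left out 1 library, nor without the 3 libraries that stood apart (-1.74, edgeR adjusted p = 0.0572), and DESeq2's own filter left it without an adjusted p. In DMSO libraries FAS averaged 0.502 ± 0.063 CPM under MDA-MB-231, 0.714 ± 0.111 under HCT-116 and 1.72 ± 0.52 under MHCC-97H (SD, n = 3 each). It was lower by log2 values of -1.76 (edgeR adjusted p = 0.00157) for MDA-MB-231 and -1.26 (edgeR adjusted p = 0.0125) for HCT-116. The second call was lost without MHCC-97H DMSO replicate 2 (-0.99, edgeR adjusted p = 0.0628). The replicate block gave -1.39 (edgeR adjusted p = 0.0766), which compares levels fitted to replicate 1 and so does not test the difference of group means.

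ZMAT3 (chr3:179017223-179072279, minus strand) encodes a zinc finger protein that binds RNA and influences splicing and mRNA stability. The MHCC-97H libraries had 9.91, 9.67 and 11.0 CPM with H3B-8800, against 6.29, 4.99 and 5.07 CPM with DMSO. All treated libraries lay above all DMSO libraries, and ZMAT3 rose by 0.90 ± 0.31 (SE) on the log2 scale (edgeR adjusted p = 0.0437). The call was close to the threshold. It was lost without any 1 of the 6 MHCC-97H libraries (edgeR adjusted p 0.0546 to 0.127), in 4 fits without 1 library of another label, and with the replicate block (0.91, edgeR adjusted p = 0.0694), while the estimate stayed between 0.84 and 1.02 in the fits that left out 1 MHCC-97H library.

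Under MDA-MB-231 ZMAT3 had 6.33, 4.73 and 6.48 CPM with H3B-8800, against 4.89, 7.40 and 3.86 CPM with DMSO. In the libraries labelled HCT-116 it had 6.99, 4.75 and 7.53 CPM with H3B-8800, against 7.99, 4.57 and 2.74 CPM with DMSO. The groups overlapped under both labels. In DMSO libraries ZMAT3 was not called: log2 -0.02 (95% interval -0.69 to 0.65) for MDA-MB-231 over MHCC-97H and -0.09 for HCT-116 over MHCC-97H.

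RRM2B (chromosome 8, minus strand) encodes p53R2, the p53-induced small subunit of ribonucleotide reductase. With the MHCC-97H label it had 10.3, 13.8 and 12.8 CPM with H3B-8800, against 10.6, 8.53 and 6.79 CPM with DMSO. One treated library lay below the highest DMSO library, and the log2 fold change of 0.51 (95% interval 0.10 to 0.93) missed the threshold (edgeR adjusted p = 0.0633). It passed without MHCC-97H DMSO replicate 1 (0.69, edgeR adjusted p = 0.0285), without HCT-116 DMSO replicate 2 (0.0451) or H3B-8800 replicate 2 (0.0348), without the 3 libraries that stood apart (0.53, 0.0175), with library totals (0.64, 0.0385), with the replicate block (0.52, 0.0362) and in DESeq2 (0.52, DESeq2 adjusted p = 0.0279). It did not pass in limma voom (0.52, limma adjusted p = 0.132) or with the GC content and length trend removed, where the estimate was 0.28 (edgeR adjusted p = 0.223).

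Under MDA-MB-231 RRM2B had 27.9, 30.6 and 24.1 CPM with H3B-8800, against 34.3, 28.4 and 28.4 CPM with DMSO. Under HCT-116 it had 33.7, 22.7 and 32.4 CPM with H3B-8800, against 37.4, 26.2 and 37.3 CPM with DMSO. The groups overlapped under both labels. The effect minus that under MHCC-97H was -0.65 for MDA-MB-231 and -0.70 for HCT-116, neither called (edgeR adjusted p = 0.0991 and 0.0943). The HCT-116 difference was called with the replicate block (-0.71, edgeR adjusted p = 0.0488) and in DESeq2 (-0.71, DESeq2 adjusted p = 0.0425). It was also called without MHCC-97H DMSO replicate 1 (edgeR adjusted p = 0.0467) or HCT-116 DMSO replicate 2 (0.0355). The MDA-MB-231 difference was called without MHCC-97H DMSO replicate 1 (-0.83, edgeR adjusted p = 0.0459). RRM2B was the only member called higher in DMSO under both labels than under MHCC-97H: 30.4 ± 3.43 CPM under MDA-MB-231 and 33.6 ± 6.45 under HCT-116, against 8.63 ± 1.89 under MHCC-97H (SD, n = 3 each). The log2 differences were 1.82 (edgeR adjusted p = 3.6e-07) and 1.96 (edgeR adjusted p = 1.47e-07).

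PLK3 (chr1:44800225-44805990, plus strand) encodes a polo-like kinase of stress responses. Under MHCC-97H it had 22.3, 21.4 and 23.1 CPM with H3B-8800, against 24.8, 26.6 and 30.7 CPM with DMSO. All treated libraries lay below, but the log2 fold change of -0.30 (95% interval -0.56 to -0.04) was not called by edgeR (adjusted p = 0.0804), while DESeq2 called it (-0.29, DESeq2 adjusted p = 0.0387), as limma voom did. Under MDA-MB-231 it ranged from 2.47 to 2.99 CPM with H3B-8800 and from 2.17 to 2.75 CPM with DMSO. Under HCT-116 it ranged from 1.85 to 2.51 CPM with H3B-8800 and from 1.97 to 2.39 CPM with DMSO. PLK3 showed the largest DMSO difference of the 9 genes, 2.46 ± 0.29 CPM under MDA-MB-231 and 2.19 ± 0.21 under HCT-116, against 27.4 ± 3.01 under MHCC-97H (SD, n = 3 each). The log2 differences were -3.48 (edgeR adjusted p = 1.35e-12) and -3.64 (edgeR adjusted p = 8.58e-13).

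Because the strand setting of the counting is not given, reads of overlapping exons cannot be assigned to 1 gene with certainty. In GENCODE 29, exons of CDKN1A overlap those of DINOL by 146 bases, FAS those of ACTA2 by 380, SESN1 those of AL390208.1 by 363, TP53I3 those of FAM228B by 80 and PLK3 those of TCTEX1D4 by 78. MDM2 overlaps exons of several neighbouring genes, by 785 bases for the gene with the largest overlap. GDF15, RRM2B and ZMAT3 overlap no other exon. Several further list genes named below overlap other genes by more. The largest overlap with another gene was 3732 bases for TP53BP1, 3181 for PRC1, 2048 for ATR and 1985 for ASNS. It was 1917 for FBXO22, 1787 for NUSAP1 and 1369 for CDK4.

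Base composition moved with the MHCC-97H response. Over 14223 genes, which are not independent, the log2 fold change under MHCC-97H correlated with transcript GC content (Spearman's rho -0.517) and exonic length (0.358). The deviation of each MHCC-97H library from the label's mean correlated with GC content at rho -0.363 to -0.606 with H3B-8800 and 0.449 to 0.540 with DMSO, so a library-wide GC difference and the treatment cannot be told apart. The estimates of 8 of the 9 genes had this direction. GDF15 (62.9% GC), PLK3 (61.2%) and TP53I3 (58.4%) had negative estimates, and ZMAT3 (39.5%), RRM2B (36.4%), MDM2 (41.9%), FAS (39.1%) and SESN1 (43.4%) positive ones. CDKN1A, with 58.1% GC, had a positive estimate. Under the other labels the correlation of the log2 fold change with GC content had the opposite sign, 0.309 for MDA-MB-231 and 0.180 for HCT-116. The deviations of the 3 libraries that stood apart correlated with GC content at rho 0.513 (MDA-MB-231 H3B-8800 replicate 3), 0.476 (HCT-116 DMSO replicate 2) and 0.592 (HCT-116 H3B-8800 replicate 2). In the other 9 libraries with the shared profile rho was -0.461 to 0.115.

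After a smooth trend on GC content and length was removed within each library, no member was called under MHCC-97H. The log2 fold changes became -0.12 for GDF15 (edgeR adjusted p = 0.315), -0.17 for TP53I3 (0.279) and 0.50 for ZMAT3 (0.274), while CDKN1A had 0.66 (0.288). The calls over all genes under this label fell to 2203, against 3922 without the removal. The differences between labels also lost their calls, with edgeR adjusted p-values of 0.808 and 0.168 for GDF15, 0.151 for TP53I3 and 0.0791 for FAS. In DMSO, the MDM2 difference for MDA-MB-231 was lost (log2 0.16, edgeR adjusted p = 0.769), and ZMAT3 became lower under MDA-MB-231 (-0.91, 0.00851) and HCT-116 (-0.95, 0.00673) than under MHCC-97H.

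**Figure D4:**
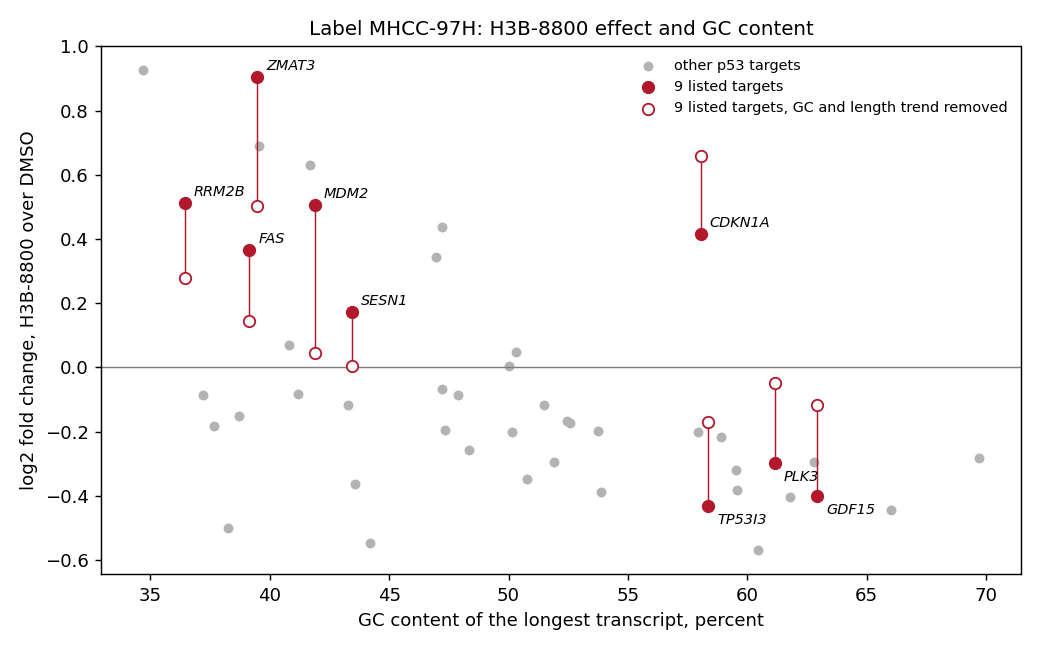
Log2 fold change of H3B-8800 over DMSO under MHCC-97H (y axis) against transcript GC content in percent (x axis) for the 9 p53 targets as fitted (filled), the same after removal of the GC content and length trend (hollow, joined by a line), and the other p53 targets as fitted (grey). GDF15, TP53I3 and ZMAT3 move toward 0 after the removal, and CDKN1A does not.

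Other genes of the p53 pathway under MHCC-97H were also mixed. Of 41 other p53 targets, 37 were tested, and 4 rose and 12 fell, with a median log2 fold change of -0.20, against 12.9% higher, 14.7% lower and a median of -0.06 over all tested genes. The counts depended on the scaling: with library totals 5 were higher and 3 lower, with a median of -0.06 against 0.04 over all genes. In the cell-cycle arrest list, 12 genes were tested: PLK2, a polo-like kinase, rose by 0.44 (edgeR adjusted p = 0.0111), whereas SERTAD1 (-0.39), SFN, the 14-3-3 sigma protein (-0.29), and BTG1 (-0.15) fell. In the apoptosis list, 11 genes were tested: APAF1, the apoptosome scaffold, rose by 0.63 (edgeR adjusted p = 0.0291), and 4 genes fell, among them the PIDDosome gene PIDD1 (-0.44), TRIAP1 (-0.36) and the death receptor TNFRSF10A (-0.20). In the list of repair and metabolism, 14 genes were tested: the translesion polymerase POLK (0.93) and the autophagy regulator DRAM1 (0.34) rose, and 5 fell, with SESN2 at -0.32 and CMBL at -0.20. After removal of the GC content and length trend, 2 of the 37 were higher and 5 lower; among the genes named here PLK2, DRAM1, BTG1 and TRIAP1 were still called.

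Of 15 genes of the p53 family and its regulators, 6 rose and 1 fell under MHCC-97H, with a median log2 fold change of 0.20, against 12.9% higher, 14.7% lower and a median of -0.06 over all tested genes. With library totals 7 rose and none fell, and after removal of the GC content and length trend 6 rose and none fell. ATR, the replication stress kinase, averaged 5.65 ± 1.07 CPM with H3B-8800 and 2.33 ± 0.14 CPM with DMSO (log2 1.28, edgeR adjusted p = 0.00755; SD, n = 3 each); after that removal its log2 fold change was 0.81 (edgeR adjusted p = 0.0147). Exons of ATR overlap those of another gene by 2048 bases. TP53BP1, a DNA damage adaptor, averaged 42.0 ± 4.70 CPM with H3B-8800 and 23.5 ± 3.09 CPM with DMSO (log2 0.84, edgeR adjusted p = 0.00265). Its exons overlap those of another gene by 3732 bases. EP300, the acetyltransferase coactivator, rose by 0.64 (edgeR adjusted p = 0.00105), and USP7, a deubiquitinase of MDM2 and p53, by 0.42 (edgeR adjusted p = 0.00398). CDKN2A, which encodes p16 and ARF, was the gene that fell, to 312 ± 10.5 CPM with H3B-8800, against 418 ± 37.3 CPM with DMSO (edgeR adjusted p = 0.0335), and with the trend removed it was not called (-0.20, edgeR adjusted p = 0.355).

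Of 24 cell-cycle genes bound by the DREAM complex, through which p21 lowers mitotic genes, 9 rose and 3 fell under MHCC-97H, with a median log2 fold change of 0.01, beside the same shares over all tested genes (12.9% higher and 14.7% lower). With library totals 9 rose and none fell, and after removal of the GC content and length trend 8 rose and 1 fell. The cytokinesis factor ECT2 rose by 1.08 (edgeR adjusted p = 0.000534) and the spindle genes NUSAP1, PRC1 and KIF20A by 0.59, 0.43 and 0.35; ECT2 had 0.83 after the removal (edgeR adjusted p = 5.49e-05). Among 12 tested CDK inhibitors and G1 cyclins and kinases, CDK6 rose (0.70) and CDKN1B, which encodes p27 (-0.31), and CDK4 (-0.37) fell. Among 9 genes of the integrated stress response, which also acts on GDF15, 3 fell: ATF4 (-0.22), DDIT4 (-0.23) and PPP1R15A (-0.16). Medians were -0.24 for the CDK inhibitors and cyclins and -0.22 for the stress response genes, against -0.06 over all tested genes. After removal of the GC content and length trend none of either list was called, and with library totals 1 CDK inhibitor or cyclin gene rose and no other gene of both was called. In these lists no gene was called under MDA-MB-231, and under HCT-116 ASNS, an asparagine synthetase induced by amino acid stress, was the 1 gene called: it averaged 135 ± 4.77 CPM with H3B-8800 and 97.4 ± 6.23 CPM with DMSO (log2 0.47, edgeR adjusted p = 0.00247; SD, n = 3 each).

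In DMSO libraries, the other p53 targets differed in both directions: of 37 tested, 14 were higher and 19 lower under MDA-MB-231 than under MHCC-97H, and the counts were also 14 and 19 for HCT-116. Over all tested genes, 43.2% were higher and 39.5% lower for MDA-MB-231, and 43.0% and 39.5% for HCT-116. PHLDA3, an AKT inhibitor, had no count in the 3 MDA-MB-231 libraries, against 59.5 ± 1.27 CPM under MHCC-97H, so MHCC-97H was at least 2242-fold higher by the limit of 3 counts over the group; with 2 counts in the HCT-116 libraries, the ratio of MHCC-97H was 3438 (95% counting interval 952 to 28387). PLK2 (log2 4.65 and 4.67), TP53INP1 (4.28 and 4.29) and DRAM1 (2.41 and 2.39) were higher under MDA-MB-231 and HCT-116, in that order, and FBXO22 was lower (-2.54 and -2.38). Among the regulators, ATR (3.08 and 2.92) and EP300 (3.05 and 3.07) were higher and CDKN2A was lower (-3.85 and -3.91). TP73, a p53 family member, had 2 counts in each of these groups, and the ratio of MHCC-97H to MDA-MB-231 was 177 (95% counting interval 48.9 to 1460). MDM4, the p53 inhibitor related to MDM2, averaged 14.3 ± 14.0 CPM under MDA-MB-231, 22.7 ± 16.4 under HCT-116 and 2.84 ± 0.47 under MHCC-97H (SD, n = 3 each), with log2 differences of 2.33 (edgeR adjusted p = 0.0365) and 3.00 (edgeR adjusted p = 0.0107).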

How the data were processed

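RNA sequencing counts of 18 libraries were analysed. The deposited table holds whole-number read counts per Ensembl gene, made by the authors without normalization; fastp, HISAT2 and GRCh38 are named per the submitters' processing notes, while versions, counting tool, annotation and strand setting were not given in the sources used here. Symbols and positions came from GENCODE 29 (20148 genes with a symbol, 20224 with a position, of 20263). It also gave the GC content of the longest transcript and the exonic length of each gene, taken over all its exons. Promoter sequences came from RefSeq (GRCh38.p14).

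The edgeR package (4.0.16, under R 4.3.3) fitted 6 group means over all 18 libraries, with TMM scaling, filterByExpr by group and the robust quasi-likelihood F test, with Benjamini-Hochberg adjustment over 14234 genes; a gene was called under 0.05. CPM are TMM-scaled. SE and 95% intervals come from this fit. A limit at no count is 3 counts and covers, like the counting intervals, counting error only. The step was tested on simulated data, with 50 genes changed by each amount under MHCC-97H. It recovered 40% of these genes at a log2 change of 0.5 and 22% at -0.5. At a log2 change of 1 it recovered 64%, and at -1 it recovered 74%. Of the unchanged genes, 5 were called under MHCC-97H and 0 under HCT-116. A gene that was not called may thus still have changed. The simulated counts were drawn independently for each gene, with no library-wide GC difference. The false calls in the simulation therefore do not measure those in the real libraries. Alternatives used limma 3.58.1 (voom), DESeq2 1.42.0, other scalings and filters, a replicate block, removal of a GC content and length trend, and left-out libraries.

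The members, gene lists and markers were chosen with earlier results of these data known. Of each further list, up to 4 genes with the smallest adjusted p under MHCC-97H were named, with any called under another label and, in DMSO, the 4 targets and 4 regulators with the largest differences among those averaging at least 1 CPM; likeness covered genes of at least 10 CPM. Replicate libraries differed by more than counting noise. The tests reported use no pairing, and the block, an alternative, takes the replicate numbers within each label. In DMSO comparisons between labels, the fit with the block compares levels fitted to replicate 1 of each label and not group means. Correlations of same-numbered libraries' deviations from the group means all exceeded 0.1 under HCT-116 only (0.159, 0.429 and 0.117); they were -0.039, 0.133 and 0.007 under MHCC-97H and 0.195, 0.155 and 0.002 under MDA-MB-231 (9233 genes).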

Additional observations from a re-analysis of the deposited data

Results flagged for a closer look

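These results were picked out because the H3B-8800 effect differed between line labels by the test of the difference in edgeR (adjusted p under 0.05); values are differences of log2 fold changes, and no explanation was tested. Both comparisons share the MHCC-97H libraries, and 20.2% of tested genes differed for MDA-MB-231 and 13.2% for HCT-116. For MDA-MB-231 minus MHCC-97H, the p53 target GDF15 had 0.39. Among regulators, EP300 had -0.61, TP53BP1 -1.08, USP7 -0.52 and ATR -1.84. Among other p53 targets, SERTAD1 had 0.72, PLK2 -0.51, SFN 0.40, BTG1 0.24, TRIAP1 0.31, PIDD1 0.43, TNFRSF10A 0.35, SESN2 0.47, POLK -1.15 and DRAM1 -0.56. Among cell-cycle genes, ECT2 had -1.23, NUSAP1 -0.56, KIF20A -0.34, PRC1 -0.48, CDK6 -0.95 and CDKN2D 0.43. Among stress response genes, ATF4 had 0.31, DDIT4 0.34, PPP1R15A 0.26 and ASNS 0.34.

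For HCT-116 minus MHCC-97H, the p53 targets GDF15, TP53I3 and FAS had 0.54, 0.63 and -2.19. Among regulators, EP300 had -0.68, TP53BP1 -0.97, USP7 -0.40, ATR -1.36 and CDKN2A 0.87. Among other p53 targets, SERTAD1 had 0.45, PLK2 -0.53, SFN 0.50, SESN2 0.50 and DRAM1 -0.51. Among cell-cycle genes, ECT2 had -1.09, NUSAP1 -0.48, KIF20A -0.36 and PRC1 -0.40, and among stress response genes ATF4 had 0.40 and ASNS 0.59.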

How the results depend on the processing

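Across all alternatives with an adjusted p, tests of the 9 genes stayed on their side of the threshold in 2578 cases. They lost a call in 68 and gained one in 16. DMSO comparisons with the replicate block are among these alternatives, but they compare levels fitted to replicate 1 and not group means. In 1 of them a called value changed sign: MDM2, MDA-MB-231 over MHCC-97H, was -0.20 with the block and the GC content and length trend removed. Counts over all genes are given here as H3B-8800 effects under MHCC-97H (3922 calls), under MDA-MB-231 (5) and under HCT-116 (5), the differences MDA-MB-231 minus MHCC-97H, HCT-116 minus MHCC-97H and HCT-116 minus MDA-MB-231 (2872, 1878 and 5), the DMSO difference HCT-116 over MDA-MB-231 (5) and calls in the gene lists under MHCC-97H (44). With an absolute log2 fold change of at least 1, these became 314, 3 and 1 for the effects, 519, 288 and 3 for the differences, and 1 in DMSO. With the GC content and length trend removed, calls were 2203 under MHCC-97H, 1490 and 862 for its differences and 22 in the lists, and 28 in the lists when the replicate block was added. With library totals, the lists had 28 calls, and 87.8% of all calls under MHCC-97H were higher, against 46.7% with TMM and 59.9% with upper-quartile scaling. The replicate block raised HCT-116 minus MHCC-97H to 3319; its changes to calls of the 9 genes stand beside them, and it changed no other call among them. DESeq2 called 49 genes under MDA-MB-231, 22 under HCT-116, 26 for their difference and 23 in DMSO, where voom called 8. The 6 libraries of a label alone gave 14 calls under MDA-MB-231 and 1 under HCT-116. Without the 3 libraries that stood apart, an alternative chosen after seeing the data, as was the mean effect over MDA-MB-231 and HCT-116, HCT-116 minus MDA-MB-231 had 11 calls and the DMSO difference 9. Leaving out 1 library at a time gave 2141 to 4455 calls under MHCC-97H (2141 without DMSO replicate 3, 2439 without DMSO replicate 2 and 2336 without H3B-8800 replicate 2), 4 to 8 under MDA-MB-231, 3 to 15 under HCT-116, 1470 to 3661 for MDA-MB-231 minus MHCC-97H (lowest without MDA-MB-231 H3B-8800 replicate 3), 322 to 2841 for HCT-116 minus MHCC-97H (lowest without HCT-116 DMSO replicate 3, highest without its replicate 2), 5 to 9 for HCT-116 minus MDA-MB-231, and 25 to 47 in the lists. The cause of these changes was not tested. Depth limits FAS most, with 2 to 10 counts per HCT-116 library with H3B-8800.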
